A study of Homo sapiens with 15 samples.

Results

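The 43 genes described here encode matrix metalloproteinases (20 MMP genes), ADAMTS enzymes (19 genes) and their tissue inhibitors (4 TIMP genes). They were chosen by symbol alone, as every gene of the raw count table named MMP, ADAMTS or TIMP with a number, and are 43 of the 57820 genes counted. MMPs are zinc-dependent endopeptidases, made as inactive proenzymes and secreted or held at the cell surface, that cut collagens and other matrix proteins. ADAMTS enzymes are secreted relatives with thrombospondin repeats that process proteoglycans and procollagens, and TIMPs bind and block the active site of these enzymes. Tumor cells that invade or attach to matrix commonly change the balance between the enzymes and their inhibitors.

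RNA-seq was performed on A673 cells, an Ewing sarcoma line that carries the EWS/FLI fusion of the EWS low-complexity domain to the DNA-binding part of FLI1, an ETS transcription factor. The 15 libraries fell into 5 conditions of 3. In iLuc cells a control shRNA against luciferase and an empty vector were delivered, leaving endogenous EWS/FLI (endo-EF) in place, and in iEF cells endo-EF was depleted by shRNA and the vector was empty. The other 3 conditions received the EWS/FLI shRNA and a rescue cDNA, which was 3X-FLAG wildtype EWS/FLI (WT-EF), Δ22, which lacks the EWS domain, or DAF, in which tyrosines of the EWS domain are mutated to alanine. Both shRNA (day 1) and cDNA or empty vector (day 5) were delivered to the same cell line by retrovirus, followed by selection in 2 µg/mL puromycin and 400 µg/mL hygromycin B until day 16.

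Levels are CPM, the usual count scaling by library size, on library sizes adjusted by TMM, and are listed for replicates 1, 2 and 3 in that order, with means ± SD over 3 libraries. Changes are log2 fold changes ± SE from 1 edgeR model of all libraries, and a gene was called where the adjusted p was under 0.05. The SE is approximate, the absolute log2 fold change divided by the square root of the test's F statistic. Total counts were between 28659475 and 41859880 per library. FLI1, whose 3′ part forms the end of the fusion transcript and is carried by the rescue cDNAs, was at 49.4 ± 2.62 CPM in iLuc cells, 14.6 ± 1.44 in iEF, 17.6 ± 1.39 in WT-EF, 31.2 ± 6.08 in Δ22 and 24.3 ± 2.64 in DAF cells. Against iEF it was called higher in iLuc, Δ22 and DAF cells but not in WT-EF cells (log2 fold change 0.27). These counts do not separate the endogenous transcript, whose 3′UTR the shRNA targets, from that of the cDNA. The Ewing sarcoma markers NR0B1, NKX2-2, STEAP1 and IL1RAP were called higher in iLuc than in iEF cells, CCND1 was not called, and CD99 held 0 to 3 counts per library. Of the markers of leukocytes, endothelium and epithelium, 4 of 5 were matched and none exceeded 1.01 CPM in any library, although EPCAM was called higher in iLuc (2.76 ± 0.42) and WT-EF (1.46 ± 0.45) than in iEF cells. Its part in the results was not tested. In bulk libraries, fewer cells of a type and less RNA per cell cannot be told apart.

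Of the 43 genes, 41 averaged at least 1 count per library and were tested, and 27 averaged at least 50 counts. MMP12 and MMP28 were not analysed here, and MMP26 and MMP27 had at most 3 counts in any library and were not tested. The exons of 16 of the genes overlap those of another gene. The strand setting of the counting was not given, so reads over bases shared by pairs on opposite strands cannot be told apart. This applies, for example, to MMP1 and MMP3 with WTAPP1, MMP9 with SLC12A5-AS1, MMP19 with TMEM198B, ADAMTS9 with ADAMTS9-AS1 and TIMP4 with SYN2. TIMP2 and CEP295NL overlap on the same strand, so no strand setting would separate reads over their shared bases.

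Per exon length, MMP1 was the most abundant of the 27 genes in every condition. It reached 863 ± 449 RPKM (reads scaled for exon length and library size, n = 3) in iEF cells, ahead of TIMP1 at 91.2 ± 25.8, MMP14 at 77.2 ± 5.79, MMP10 at 37.3 ± 10.9 and MMP2 at 28.8 ± 2.99 RPKM. TIMP1 and MMP14 did not differ beyond their spread. TIMP2 (17.7 ± 0.142 RPKM) and TIMP3 (15.7 ± 2.23) followed, and MMP3 (9.90 ± 6.82) overlapped TIMP3 within their spreads. At the other end, MMP11 was at 0.276 ± 0.0569 and ADAMTS12 at 0.293 ± 0.0900 RPKM in iEF cells, within each other's spread. The plot of levels per exon length shows this order and how far the genes move between conditions.

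**Figure D1:**
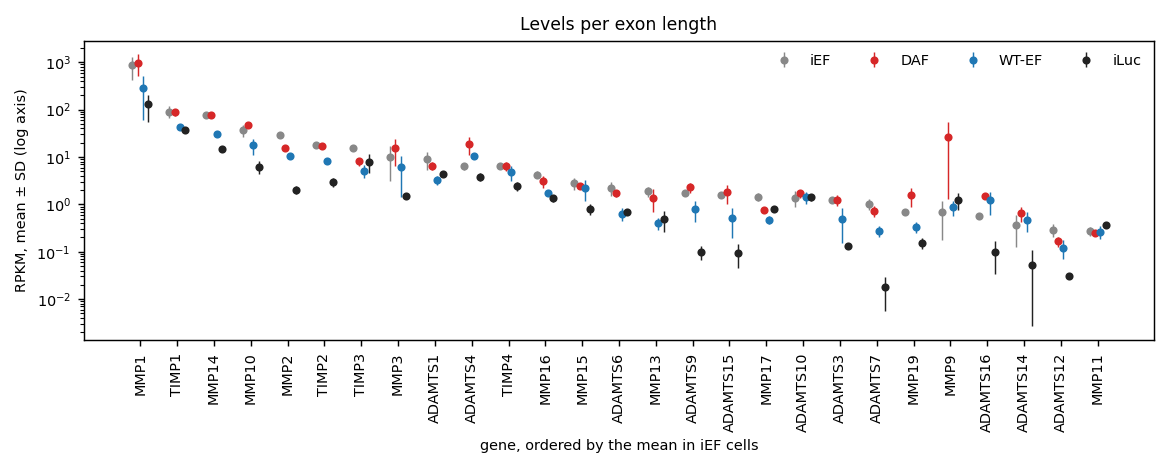
RPKM (log axis, mean ± SD over 3 libraries) of the 27 genes averaging at least 50 counts, ordered by their level in iEF cells, for iEF, DAF, WT-EF and iLuc. MMP1 is highest in each of the 4 conditions, and the iLuc point lies below the iEF point for most genes.

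The first comparison asked how the genes differ between cells with endo-EF and cells depleted of it. In iLuc cells, 30 of the 41 genes were lower than in iEF cells and 1 was higher, against 22.1% lower and 19.5% higher of all 28793 genes tested. The median log2 fold change was -1.98, against 0.04 over all genes tested. Among genes averaging at least 50 counts, 24 of 27 members were called, all lower, against 63.5% of all such genes called in either direction. The genes lower in iLuc cells included 12 MMPs, 14 ADAMTS enzymes and all 4 TIMPs, so enzymes and inhibitors were lower together.

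**Figure D2:**
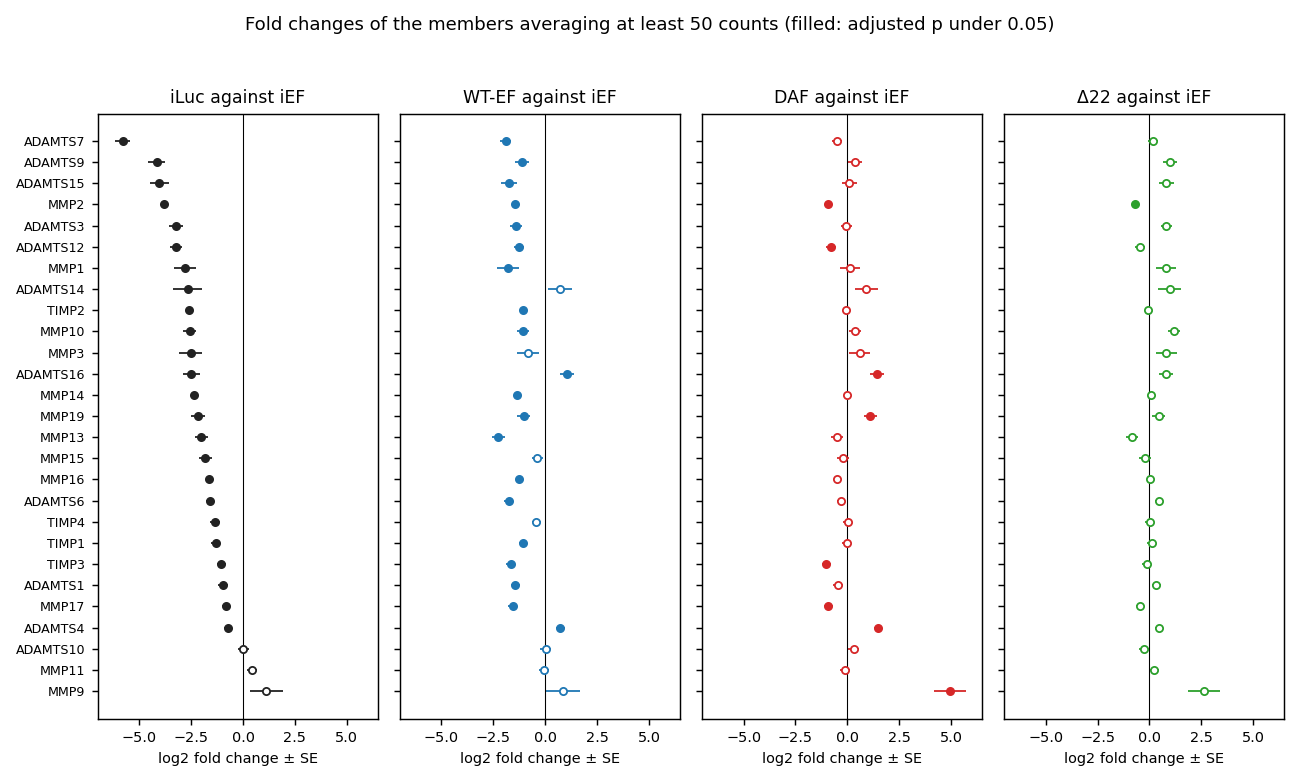
log2 fold changes ± SE against iEF for the 27 genes averaging at least 50 counts in iLuc, WT-EF, DAF and Δ22 cells, ordered by the iLuc values, with filled points at adjusted p under 0.05. All 24 filled iLuc points lie below 0, whereas DAF has 4 filled points on each side and Δ22 has 1.

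Interstitial collagenases, which cut fibrillar collagen, were led by MMP1. MMP1 (chromosome 11: 102660132 to 102668891, minus strand, GRCh37) was at 580.3, 193 and 283 CPM in iLuc libraries and 3695, 1272 and 2125 in iEF libraries. It was at 1257, 957 and 95.2 CPM in WT-EF, 5889, 3873 and 2659.7 in Δ22 and 4214, 2197 and 1721 in DAF libraries. The iLuc and iEF libraries did not overlap, and the WT-EF libraries lay below all iEF libraries but spanned the iLuc range, with replicate 3 far below the other two. MMP1 took between 0.0106 and 0.565% of all counts of a library. It was lower in iLuc than in iEF cells (log2 fold change -2.79 ± 0.52, adjusted p = 4.63e-04) and lower in WT-EF than in iEF cells (-1.80 ± 0.52, adjusted p = 0.0156). The WT-EF call was lost without the replicate block, without replicate 1 and without iEF replicate 3, with adjusted p up to 0.0997. MMP1 in DAF cells differed from iEF by 0.15 ± 0.49 (adjusted p = 0.907).

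MMP13, a collagenase of cartilage and bone, was at 0.672, 1.99 and 1.52 CPM in iLuc, 4.81, 6.91 and 4.42 in iEF and 0.886, 1.53 and 1.01 in WT-EF libraries. All 3 WT-EF libraries and all 3 iLuc libraries were below all iEF libraries, and the log2 fold changes were -2.01 ± 0.31 in iLuc and -2.26 ± 0.31 in WT-EF cells. MMP8, the neutrophil collagenase, averaged under 50 counts. It was not called in iLuc against iEF (0.50 ± 0.38, adjusted p = 0.334), whereas WT-EF cells were lower than iEF (-1.87 ± 0.47), iLuc (-2.37 ± 0.45) and DAF cells (-2.16 ± 0.46). All 3 calls were lost without the replicate block, and that against iEF also without replicate 1, without replicate 3 and without WT-EF replicate 3 (adjusted p up to 0.168).

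MMP1, MMP3, MMP7, MMP8, MMP10, MMP13, MMP20 and MMP27 lie within 435.2 kb of chromosome 11 (102391239 to 102826461), all on the minus strand. Of these 8 neighbours, MMP1, MMP3, MMP10 and MMP13 averaged at least 50 counts, and all 4 were lower in iLuc than in iEF cells. MMP20 held 0 counts in every iLuc and WT-EF library and at most 5 in iEF libraries, so no fold is given. MMP7 was not called in any comparison.

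The stromelysins MMP3 and MMP10 cut proteoglycans and fibronectin and can activate other proMMPs. MMP3 was at 2.93, 2.55 and 3.04 CPM in iLuc, 32.7, 8.90 and 13.4 in iEF, 14.0, 18.2 and 1.65 in WT-EF, 64.0, 31.2 and 12.0 in Δ22 and 47.5, 22.4 and 16.0 in DAF libraries. Only the iLuc libraries stood apart from iEF, and WT-EF replicate 3 fell below them all. The change in iLuc was -2.53 ± 0.56 (adjusted p = 0.00201, and 0.0546 without replicate 1), and that in WT-EF was not called (-0.81 ± 0.53, adjusted p = 0.291).

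MMP10 was at 10.7, 8.05 and 14.4 CPM in iLuc, 79.4, 43.7 and 73.9 in iEF, 35.0, 39.8 and 18.2 in WT-EF, 103, 161 and 187 in Δ22 and 80.1, 88.0 and 81.6 in DAF libraries. The iLuc and WT-EF libraries were all below the iEF libraries, and the Δ22 libraries were all above them. MMP10 was lower in iLuc (-2.58 ± 0.32) and in WT-EF cells (-1.06 ± 0.30) than in iEF cells. The WT-EF call was lost in 3 of 25 alternatives (adjusted p up to 0.101). The Δ22 difference of 1.20 ± 0.30 was not called (adjusted p = 0.0668). MMP11, named stromelysin but known to act on serpins and other non-matrix proteins, averaged 1.91 ± 0.128 CPM in iLuc and 1.42 ± 0.293 in iEF cells and was not called in any comparison (0.45 ± 0.24 in iLuc).

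**Figure D3:**
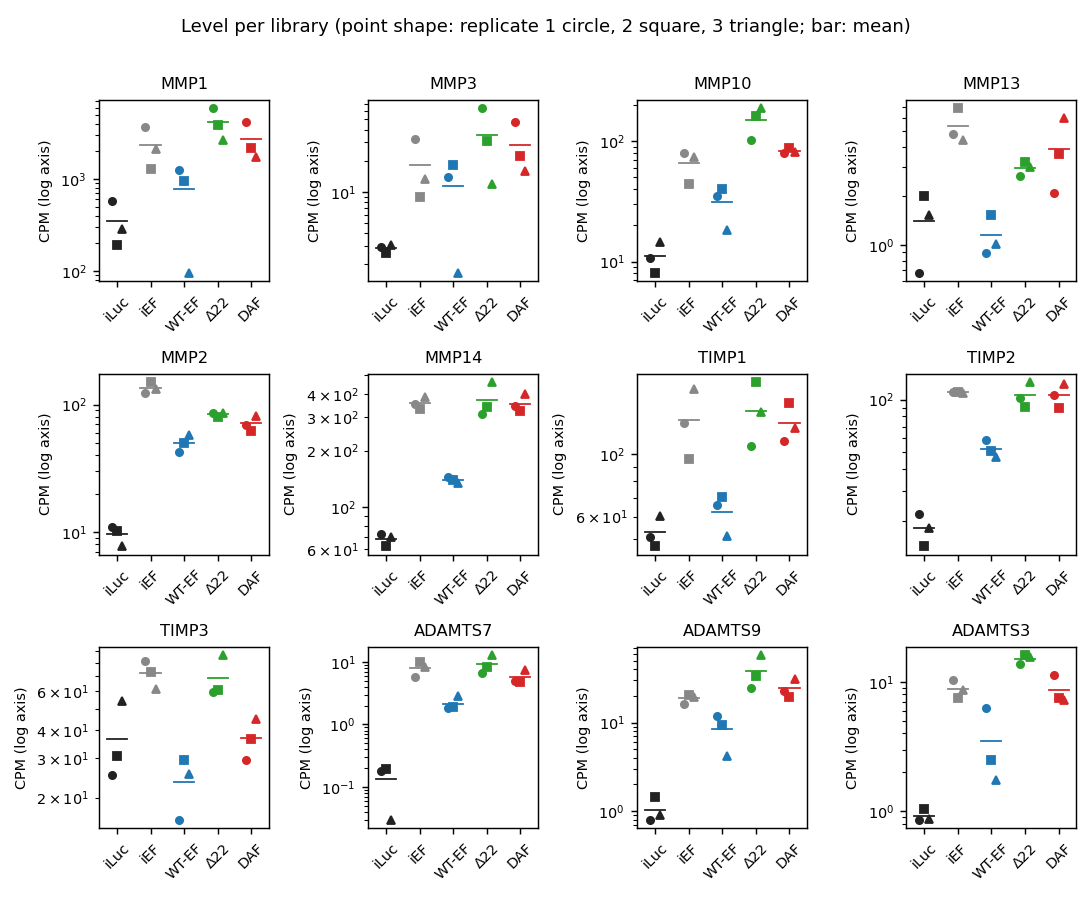
CPM per library (log axes) of 12 of the genes in the 5 conditions, with circles, squares and triangles for replicates 1, 2 and 3 and bars for the means. The iLuc mean lies below the iEF mean in each panel, WT-EF libraries lie below iEF for MMP2, MMP14 and TIMP2, and WT-EF replicate 3 stands below the other two for MMP1 and MMP3.

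Promoter sequences, the 250 bases upstream of the start with 50 bases after it, were taken from RefSeq (GRCh38.p14) and were present for 26 of the 43 genes. Missing were ADAMTS1, ADAMTS4, ADAMTS5, ADAMTS8, ADAMTS9, ADAMTS15, ADAMTS16, MMP1, MMP2, MMP3, MMP9, MMP13, MMP16, MMP17, MMP19, MMP25 and TIMP2. The upstream 250 bases were searched on both strands for TGANTCA, GGAAGGAA and CCGGAAGT. TGANTCA is a loosened form, with any central base, of the AP-1 site known to lie in several MMP promoters. The AP-1 consensus has C or G at that base. GGAAGGAA is a tandem of the GGAA core bound by ETS factors, and CCGGAAGT is an ETS consensus that shares this core. TGANTCA was present in 4 of 26, against 6.57% of 35116 promoters, both with any central base. It read TGAGTCA in MMP7 and TGAATCA, without the consensus base, in MMP10, MMP20 and ADAMTS12. GGAAGGAA was present in 2 of 26, in MMP14 and TIMP1, against 3.06%. CCGGAAGT was in none of the 26 and in 3.42% of all promoters. The 26 are counted by gene and the shares by promoter, which are unlike units. Of the genes with a match that average at least 50 counts, 3 have it within 150 bases of the start, and their 150 upstream bases are shown 5′ to 3′ on the gene's strand with the match in capitals.
MMP10: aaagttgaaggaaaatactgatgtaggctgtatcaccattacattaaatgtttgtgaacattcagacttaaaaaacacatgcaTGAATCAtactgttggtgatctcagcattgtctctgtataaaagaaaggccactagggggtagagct
ADAMTS12: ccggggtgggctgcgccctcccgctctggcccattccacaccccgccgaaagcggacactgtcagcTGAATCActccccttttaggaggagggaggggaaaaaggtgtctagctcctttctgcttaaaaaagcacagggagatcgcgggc
MMP14: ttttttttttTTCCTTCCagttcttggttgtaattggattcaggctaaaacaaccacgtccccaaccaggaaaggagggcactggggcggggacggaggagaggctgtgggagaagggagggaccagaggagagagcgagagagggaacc
The windows are chr11:102780629-102780778 (minus strand) for MMP10, chr5:33891991-33892140 (minus strand) for ADAMTS12 and chr14:22836435-22836584 (plus strand) for MMP14. The matches begin 67, 84 and 140 bases upstream of the start, that of MMP14 being GGAAGGAA on the opposite strand. These 3 genes were lower in iLuc and in WT-EF than in iEF cells (MMP10 -2.58 ± 0.32 and -1.06 ± 0.30, ADAMTS12 -3.21 ± 0.29 and -1.27 ± 0.25, MMP14 -2.38 ± 0.11 and -1.35 ± 0.11). A match describes these letters alone, and binding was not measured here.

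The gelatinases MMP2 and MMP9 degrade denatured and basement membrane collagen, and their levels followed different patterns. MMP2 (chromosome 16: 55423612 to 55540603, plus strand) was at 10.9, 10.2 and 7.70 CPM in iLuc, 123, 151 and 133 in iEF, 42.3, 49.7 and 57.8 in WT-EF, 86.2, 80.6 and 86.3 in Δ22 and 69.8, 62.5 and 81.9 in DAF libraries. No library of the other conditions reached the lowest iEF library. MMP2 was the one gene of the set lower than iEF in all 4 conditions, with log2 fold changes of -3.82 ± 0.16 in iLuc, -1.44 ± 0.14 in WT-EF, -0.93 ± 0.14 in DAF and -0.68 ± 0.14 in Δ22 cells (adjusted p = 7.11e-10, 3.18e-06, 7.55e-04 and 0.0265). The Δ22 call was lost in 7 of 25 alternatives, all with a library or replicate left out. MMP2 was also lower in WT-EF than in DAF cells (-0.52 ± 0.14, adjusted p = 0.0122).

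MMP9 (chromosome 20: 44637547 to 44645200, plus strand) was at 2.57, 1.99 and 4.30 CPM in iLuc, 0.683, 1.18 and 2.94 in iEF, 2.91, 1.64 and 1.68 in WT-EF, 0.850, 6.28 and 33.1 in Δ22 and 11.0, 35.3 and 135 in DAF libraries. Every DAF library was above every iEF, iLuc and WT-EF library, and the level differed widely among DAF libraries and among Δ22 libraries, with replicate 3 highest in both. MMP9 was higher in DAF than in iEF cells (4.95 ± 0.77, adjusted p = 9.26e-04) and higher in DAF than in WT-EF cells, where WT-EF against DAF was -4.08 ± 0.75 (adjusted p = 8.85e-04). The DAF call against iEF held in all 25 alternatives, with log2 fold changes between 3.98 and 5.38 and adjusted p up to 0.0499. The value for Δ22 against iEF was 2.62 ± 0.75 (adjusted p = 0.110) and that for DAF against Δ22 was 2.33 ± 0.64 (adjusted p = 0.112), neither of which was called. MMP9 was not called in iLuc (1.11 ± 0.79) or WT-EF (0.87 ± 0.81) against iEF.

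Membrane-type MMPs are tethered to the cell surface, and MMP14 is a known activator of proMMP2 in a complex with TIMP2. Of 6 such genes, all but MMP25 were lower in iLuc than in iEF cells. MMP14 (chromosome 14: 23305769 to 23318250, plus strand) was at 72.7, 62.2 and 69.9 CPM in iLuc, 352, 333 and 386 in iEF, 145, 139 and 135 in WT-EF, 314, 339 and 462 in Δ22 and 343, 323 and 397 in DAF libraries. Replicates were close together except in Δ22, which ranged from 314 to 462 CPM. iLuc lay below WT-EF, and WT-EF lay below the other 3 conditions without overlap.

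MMP14 was lower than in iEF cells in iLuc (-2.38 ± 0.11, adjusted p = 1.55e-09) and in WT-EF cells (-1.35 ± 0.11, adjusted p = 5.40e-07). In DAF cells the difference from iEF was -0.01 ± 0.11, and WT-EF was lower than DAF (-1.34 ± 0.11, adjusted p = 2.09e-06). WT-EF was above iLuc by 1.04 ± 0.11 (adjusted p = 2.04e-05). MMP16, another transmembrane member, averaged 16.2 ± 2.36 CPM in iLuc, 51.6 ± 8.81 in iEF, 21.3 ± 0.807 in WT-EF, 52.6 ± 17.4 in Δ22 and 37.4 ± 10.9 in DAF cells. It was lower than iEF in iLuc (-1.65 ± 0.15) and WT-EF cells (-1.25 ± 0.15), and lower in WT-EF than in DAF cells (-0.77 ± 0.15). MMP15 averaged 3.41 ± 0.909 CPM in iLuc, 11.7 ± 3.24 in iEF and 9.39 ± 4.38 in WT-EF cells, and was called lower in iLuc (-1.81 ± 0.29) but not in WT-EF cells (-0.38 ± 0.28, adjusted p = 0.363). MMP17, a GPI-anchored member, averaged 3.16 ± 0.466 CPM in iLuc, 5.71 ± 1.10 in iEF, 1.91 ± 0.397 in WT-EF, 4.08 ± 0.188 in Δ22 and 3.02 ± 0.340 in DAF cells. It was lower than iEF in iLuc (-0.84 ± 0.20), WT-EF (-1.57 ± 0.20) and DAF cells (-0.91 ± 0.20), and lower in WT-EF than in iLuc (-0.73 ± 0.20). Its DAF call was lost in 5 of 25 alternatives and its call against iLuc in 7. MMP24 was lower in iLuc (-1.49 ± 0.39) and WT-EF cells (-1.35 ± 0.38), and MMP25 was not called in any comparison.

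MMP19, which acts on basement membrane proteins, was at 0.886, 0.505 and 0.776 CPM in iLuc, 2.86, 3.61 and 3.34 in iEF, 2.02, 1.35 and 1.30 in WT-EF, 2.96, 4.67 and 6.07 in Δ22 and 3.90, 7.76 and 10.2 in DAF libraries. All DAF libraries were above all iEF libraries, which were above all WT-EF and iLuc libraries. The changes against iEF were -2.17 ± 0.35 in iLuc, -1.04 ± 0.32 in WT-EF and 1.11 ± 0.31 in DAF cells (adjusted p = 1.48e-04, 0.0245 and 0.0303), and WT-EF was lower than DAF (-2.15 ± 0.32). The DAF call was lost in 7 of 25 alternatives and the WT-EF call in 6, each with a library or replicate left out.

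The proteoglycan-cleaving ADAMTS enzymes include the aggrecanases and versicanases. Of 7, all but ADAMTS20 were lower in iLuc than in iEF cells. ADAMTS9 was at 0.795, 1.43 and 0.896 CPM in iLuc and 16.1, 20.6 and 19.7 in iEF libraries (-4.16 ± 0.42, adjusted p = 1.46e-06), and ADAMTS15 at 0.306, 0.505 and 0.896 and 9.91, 8.84 and 9.89 CPM (-4.04 ± 0.46, adjusted p = 5.47e-06). For both genes every iLuc library was far below every iEF library. ADAMTS1, an aggrecanase and versicanase, averaged 32.3 ± 2.42 CPM in iLuc, 66.9 ± 28.5 in iEF, 23.6 ± 5.14 in WT-EF, 82.9 ± 26.1 in Δ22 and 47.4 ± 9.33 in DAF cells. It was lower than iEF in iLuc (-0.97 ± 0.23) and in WT-EF cells (-1.44 ± 0.23), and WT-EF against iLuc was not called (-0.47 ± 0.23, adjusted p = 0.188). ADAMTS8, under 50 counts, was lower in iLuc than in iEF cells (-1.91 ± 0.65), a call lost in 6 of 25 alternatives. In WT-EF cells ADAMTS9 (-1.12 ± 0.35) and ADAMTS15 (-1.73 ± 0.39) were lower than in iEF but higher than in iLuc cells (3.04 ± 0.42 and 2.32 ± 0.48). The ADAMTS9 call against iEF was lost in 5 of 25 alternatives (adjusted p up to 0.141), and the ADAMTS15 call against iLuc in 2 of 25.

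ADAMTS4, aggrecanase-1, was the one of these enzymes lower than iEF with endo-EF and higher with WT-EF and DAF. It was at 34.5, 47.6 and 35.7 CPM in iLuc, 60.2, 59.3 and 79.0 in iEF, 92.4, 124 and 114 in WT-EF, 60.6, 88.9 and 131 in Δ22 and 116, 187 and 278 in DAF libraries. iLuc libraries were all below iEF, and WT-EF and DAF libraries were all above it. Against iEF the changes were -0.74 ± 0.20 in iLuc (adjusted p = 0.00706), 0.73 ± 0.20 in WT-EF (adjusted p = 0.0102) and 1.49 ± 0.20 in DAF cells (adjusted p = 2.87e-04). The direct tests placed WT-EF above iLuc by 1.48 ± 0.20 (adjusted p = 1.60e-04) and below DAF (-0.75 ± 0.20, adjusted p = 0.00921). The call in iLuc was lost without iEF replicate 1 (adjusted p = 0.0515), that in WT-EF without replicate 2 and without the replicate block (adjusted p up to 0.163). The call in DAF against iEF held in all 25 alternatives.

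ADAMTS5, the other main aggrecanase, averaged 16.1 counts. It held 2, 0 and 1 counts in iLuc libraries and 14, 5 and 9 counts in iEF libraries, and was called lower in iLuc (adjusted p = 0.00519). No fold is given there since no iLuc library exceeded 3 counts. DAF libraries held 25, 50 and 21 counts and were higher than iEF (1.80 ± 0.47, adjusted p = 0.0218), a call lost in 6 of 25 alternatives. Δ22 libraries held 39, 52 and 15 counts, all above the iEF counts, but were not called (adjusted p = 0.0723).

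The procollagen N-propeptidases ADAMTS2, ADAMTS3 and ADAMTS14, which trim fibrillar procollagens, were all lower in iLuc than in iEF cells. ADAMTS3 was at 0.856, 1.04 and 0.866 CPM in iLuc, 10.3, 7.55 and 8.64 in iEF and 6.29, 2.48 and 1.76 in WT-EF libraries, with no overlap of the 3 conditions. The changes against iEF were -3.24 ± 0.33 in iLuc and -1.42 ± 0.29 in WT-EF cells. ADAMTS14 was at 0, 0.589 and 0.299 CPM in iLuc, 0.815, 1.79 and 3.37 in iEF and 3.82, 2.67 and 1.44 in WT-EF libraries, so that iEF and WT-EF overlapped and iLuc lay below both. It was lower in iLuc (-2.66 ± 0.70) but not called in WT-EF (0.71 ± 0.57, adjusted p = 0.407), and WT-EF was above iLuc by 3.37 ± 0.70 (adjusted p = 0.00336). ADAMTS2 was called in iLuc (-2.98 ± 0.65) and not in WT-EF cells (-1.26 ± 0.54, adjusted p = 0.0941).

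ADAMTS7 and ADAMTS12, which cut cartilage oligomeric matrix protein, were both lower in iLuc and in WT-EF than in iEF cells. ADAMTS7 held 6, 7 and 1 counts in iLuc libraries against 218, 298 and 282 in iEF, 65, 71 and 105 in WT-EF, 224, 312 and 353 in Δ22 and 143, 178 and 221 in DAF libraries. iLuc was close to 0, and WT-EF lay between iLuc and the other 3 conditions with no overlap. Its change of -5.81 ± 0.38 in iLuc (adjusted p = 2.41e-08) was the largest of the 27 genes, while WT-EF was lower than iEF (-1.90 ± 0.27) and above iLuc (3.91 ± 0.40). ADAMTS12 averaged 0.293 ± 0.0375 CPM in iLuc, 2.81 ± 0.864 in iEF, 1.16 ± 0.498 in WT-EF, 2.09 ± 0.846 in Δ22 and 1.58 ± 0.357 in DAF cells. It was lower than iEF in iLuc (-3.21 ± 0.29), WT-EF (-1.27 ± 0.25) and DAF cells (-0.80 ± 0.24, adjusted p = 0.0463). The DAF call of ADAMTS12 was lost in 16 of 25 alternatives.

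Among the other ADAMTS enzymes, ADAMTS6 was at 6.05, 6.65 and 5.37 CPM in iLuc, 21.2, 11.8 and 23.4 in iEF, 7.34, 4.25 and 4.79 in WT-EF, 24.4, 23.0 and 27.9 in Δ22 and 15.5, 12.1 and 17.3 in DAF libraries. The WT-EF and iLuc libraries were all below the other 3 conditions. It was lower than iEF in iLuc (-1.59 ± 0.21) and WT-EF cells (-1.77 ± 0.21). ADAMTS16 was at 0.397, 1.04 and 0.328 CPM in iLuc, 2.92, 3.91 and 3.23 in iEF, 4.54, 5.60 and 11.1 in WT-EF and 9.77, 8.47 and 7.98 in DAF libraries. All iLuc libraries were below iEF, and all WT-EF and DAF libraries were above it, as for ADAMTS4. Unlike for ADAMTS4, WT-EF against DAF (-0.39 ± 0.33, adjusted p = 0.445) and DAF against Δ22 (0.63 ± 0.33, adjusted p = 0.577) were not called. The Δ22 libraries ranged from 3.46 to 8.43 CPM and overlapped iEF, from which Δ22 was not called different (0.78 ± 0.34, adjusted p = 0.323). The changes against iEF were -2.51 ± 0.41 in iLuc, 1.03 ± 0.34 in WT-EF and 1.42 ± 0.34 in DAF cells (adjusted p = 1.48e-04, 0.0331 and 0.0143). The WT-EF call was lost in 7 of 25 alternatives and the DAF call in 4, each with a library or replicate left out. ADAMTS13, the von Willebrand factor protease, averaged 21.1 counts and was the one gene higher in iLuc than in iEF cells (0.91 ± 0.30, adjusted p = 0.0250), a call lost in 8 of 25 alternatives. ADAMTS18 held 1, 0 and 0 counts in iLuc and 8, 3 and 8 in iEF libraries and was called lower in iLuc and in WT-EF cells, the latter call being lost in 10 of 24 alternatives, both DESeq2 fits included. ADAMTS10, which binds fibrillin, averaged 8.02 ± 1.42 CPM in iLuc and 7.87 ± 2.81 in iEF cells, and was not called in any comparison, nor were ADAMTS17, ADAMTS19 and ADAMTS20.

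All 4 inhibitors were lower in iLuc than in iEF cells, with log2 fold changes of -2.61 ± 0.14 for TIMP2, -1.36 ± 0.23 for TIMP4, -1.32 ± 0.21 for TIMP1 and -1.06 ± 0.22 for TIMP3 (adjusted p = 4.18e-09, 1.99e-04, 1.13e-04 and 0.00130). TIMP2 was at 21.9, 14.4 and 18.4 CPM in iLuc, 110.0, 111 and 109 in iEF, 58.9, 50.8 and 46.6 in WT-EF, 102, 90.2 and 126 in Δ22 and 106, 89.6 and 123 in DAF libraries. iLuc and WT-EF lay apart from each other and below the other 3 conditions. TIMP1 was at 50.7, 47.0 and 60.4 CPM in iLuc, 129, 96.0 and 170.5 in iEF, 65.7, 70.4 and 51.3 in WT-EF, 107, 181 and 141 in Δ22 and 112, 152 and 124 in DAF libraries. Its iLuc and WT-EF libraries overlapped, and all 6 were below the iEF libraries.

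In WT-EF cells TIMP1 (-1.07 ± 0.21), TIMP2 (-1.08 ± 0.13) and TIMP3 (-1.67 ± 0.23) were lower than in iEF cells, and TIMP4, at 2.89 ± 0.619 CPM in iLuc, 7.59 ± 0.999 in iEF and 5.73 ± 2.02 in WT-EF cells, was not called (-0.43 ± 0.22, adjusted p = 0.165). DAF differed from iEF by -0.03 ± 0.21 for TIMP1 and -0.07 ± 0.13 for TIMP2, and WT-EF was lower than DAF for TIMP1 (-1.04 ± 0.21) and TIMP2 (-1.01 ± 0.13). TIMP3, which is bound to the matrix and also blocks ADAMTS enzymes, was the one inhibitor lower in DAF than in iEF cells. It was at 25.4, 30.7 and 54.1 CPM in iLuc, 81.6, 73.0 and 61.2 in iEF, 15.9, 29.5 and 25.4 in WT-EF, 59.1, 60.2 and 86.3 in Δ22 and 29.6, 36.5 and 44.9 in DAF libraries. The DAF and WT-EF libraries were all below the iEF libraries. The change in DAF was -1.02 ± 0.22 (adjusted p = 0.00804), which was lost in 3 of 25 alternatives, up to an adjusted p of 0.125 without a replicate or library.

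The rescue comparisons asked which changes the constructs restored, and those made against iEF share their iEF libraries with the first comparison. With WT-EF, 23 of the 41 genes were lower than in iEF cells and 2, ADAMTS4 and ADAMTS16, were higher, against 17.0% lower and 12.9% higher of all genes tested. The median log2 fold change of the 41 genes was -1.11, against -0.01 over all genes. Of genes averaging at least 50 counts, 18 of 27 members were lower and 2 higher, against 3863 and 2607 of all 13178 such genes. The 23 genes were all 3 collagenases, MMP2, MMP10, 4 membrane-type MMPs, MMP19, MMP20, ADAMTS1, ADAMTS3, ADAMTS5, ADAMTS6, ADAMTS7, ADAMTS9, ADAMTS12, ADAMTS15, ADAMTS18, TIMP1, TIMP2 and TIMP3. Without WT-EF replicate 3, in which several of these genes were lowest, 17 genes were called in place of 25, and 14 of the 25 calls held in every alternative. The calls of MMP20 and ADAMTS5, both under 50 counts, were lost in 9 of 23 and 9 of 25 alternatives (adjusted p up to 0.175 and 0.221). ADAMTS5 held 3, 5 and 0 counts in WT-EF libraries.

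Set directly against iLuc, WT-EF cells had 16 of the genes higher and 2, MMP8 and MMP17, lower, against 10.7% higher and 9.03% lower of all genes tested. At an average of 50 counts or more, 16 of 27 members were higher and 1 lower, against 2504 and 2126 of all 13178 such genes. The 16 genes were MMP2, MMP3, MMP10, MMP14, MMP15, MMP19, ADAMTS3, ADAMTS4, ADAMTS7, ADAMTS9, ADAMTS12, ADAMTS14, ADAMTS15, ADAMTS16, TIMP2 and TIMP4 (adjusted p from 3.72e-07 for MMP2 to 0.0469 for MMP3). All 16 had also been called lower in iLuc against iEF, but both comparisons use the same iLuc libraries, so these calls are not independent. In WT-EF the value against iEF was negative for all of them but ADAMTS4, ADAMTS14 and ADAMTS16. Of the 18 calls, 10 held in every alternative, and those of MMP3, MMP19 and TIMP4 were lost in 13, 8 and 6 of 25. Without replicate 2 of all conditions, 11 genes were called in place of 18.

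With DAF, 5 of the 41 genes were higher than in iEF cells (MMP9, MMP19, ADAMTS4, ADAMTS5 and ADAMTS16) and 4 were lower (MMP2, MMP17, ADAMTS12 and TIMP3), against 5.00% higher and 6.19% lower of all genes tested. The median log2 fold change was -0.03. Of genes averaging at least 50 counts, 4 of 27 members were higher and 4 lower, against 1077 and 1621 of all 13178 such genes. Only the calls of MMP9 and ADAMTS4 held in all 25 alternatives. Without replicate 2 of all conditions 2 genes were called in place of 9, and without iEF replicate 1, iEF replicate 3 or DAF replicate 2, 5 were called in each case.

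**Figure D4:**
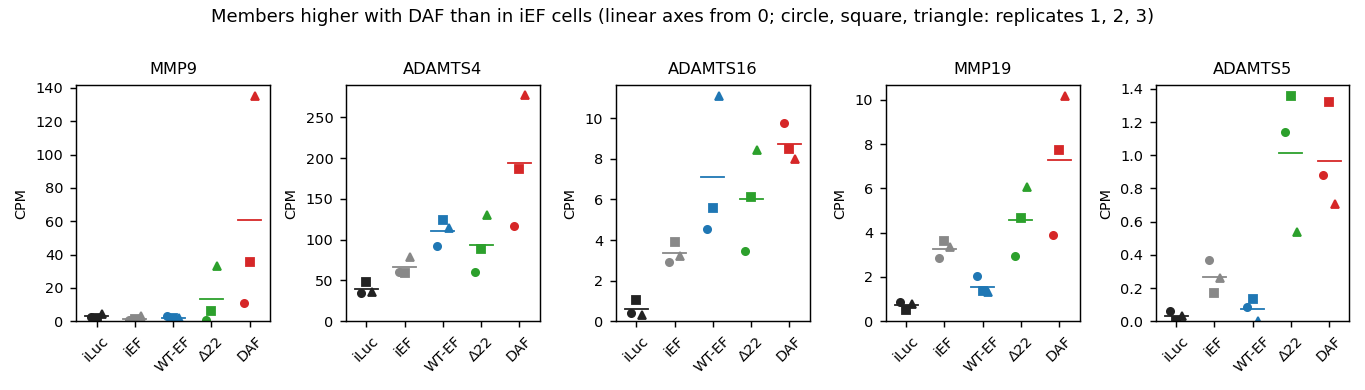
CPM per library (linear axes from 0) of the 5 genes called higher in DAF than in iEF cells, with circles, squares and triangles for replicates 1, 2 and 3 and bars for the means. The DAF libraries of MMP9 range from 11.0 to 135 CPM, and WT-EF libraries of MMP9, MMP19 and ADAMTS5 lie below all DAF libraries.

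Comparing WT-EF with DAF directly, 23 of the 41 genes were lower in WT-EF by edgeR and none was higher, against 16.1% lower and 12.4% higher of all genes tested. At an average of 50 counts or more, 19 of 27 members were lower and 0 higher, against 3720 and 2933 of all 13178 such genes. No gene was higher at an unadjusted p under 0.05 or by DESeq2 (0 in each). The median log2 fold change was -1.01, against -0.01 over all genes. The lower genes were MMP1, MMP2, MMP8, MMP9, MMP10, MMP13, MMP14, MMP16, MMP17, MMP19, all of the proteoglycan-cleaving ADAMTS enzymes but ADAMTS20, ADAMTS2, ADAMTS3, ADAMTS6, ADAMTS7, TIMP1, TIMP2 and TIMP3. Of these calls, 15 held in every alternative, and those of TIMP3, ADAMTS8 and MMP17 were lost in 10, 7 and 6 of 25. The calls of MMP1 and MMP8 were lost without the replicate block, and that of TIMP3 also with DESeq2's size factors. FLI1 was also lower in WT-EF than in DAF cells (-0.47 ± 0.10, adjusted p = 0.00264), and its part in these differences was not tested.

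With Δ22, no gene was higher than in iEF cells by edgeR and 1, MMP2, was lower, against 0.472% higher and 0.830% lower of all genes tested. At an unadjusted p under 0.05, 9 genes were higher and 3 lower, and DESeq2 called 3 higher and 1 lower. The median log2 fold change of the 41 genes was 0.32, against 0.01 over all genes, and 31 of them had a positive value, against 14798 of all 28793 genes. The largest positive values among the 27 genes were those of MMP9, MMP10 and ADAMTS9 (1.01 ± 0.34, adjusted p = 0.174), none of them called. The count of genes called was 0 without replicate 2, without any 1 iEF library and without Δ22 replicate 2 or 3, and 6 without replicate 3 or WT-EF replicate 3, in each case over the same 41 genes. DAF against Δ22 gave 1 gene, ADAMTS4, higher (1.04 ± 0.20, adjusted p = 0.0152) and none lower, against 0.948% higher and 0.379% lower of all genes tested, whereas 3 were higher and 8 lower at an unadjusted p under 0.05 and DESeq2 called 1 higher and 3 lower. That call was lost in 7 of 25 alternatives, and leaving out single libraries gave counts from 0 to 3.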

How the data were processed

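RNA-seq libraries of A673 cells were grouped by their deposited labels into iLuc, iEF, WT-EF, Δ22 and DAF, with 3 libraries each, numbered as replicates. The labels do not state separate cultures for each. The paper's design scheme covers a single replicate, from the luciferase and EWS/FLI shRNAs to rescue with the constructs. The p-values measure the spread between these libraries. Per the methods, STAR was the authors' aligner (hg19, paired-end reads) and htseq-count, in intersection-strict mode, their counter. The deposited counts are whole numbers without normalization and were used for all results. The authors also deposited estimated counts after adjustment with ComBat, used here in 1 alternative after rounding, and a table of their own fold changes and adjusted p-values, not used here. 3 columns of other samples were left out.

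Of 57820 gene identifiers, 55538 were matched to a symbol, and positions and exon lengths are those of GENCODE on GRCh37. In R 4.3.3, edgeR 4.0.16 was used to fit 1 quasi-likelihood model to the 15 libraries with condition and replicate number as a block, on 28793 genes averaging at least 1 count, with TMM library sizes. Benjamini-Hochberg adjustment covered all genes tested in each comparison, and genes under an adjusted p of 0.05 were called. The block follows the adjustment of each set of replicates in the study's methods. CPM and RPKM were computed from TMM-scaled library sizes. Depth was 28659475 to 41859880 counts per library, and 3 counts were taken as the floor, which covers counting error only.

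All genes of the 3 families are accounted for. Those averaging at least 50 counts and all TIMP genes are described, and others are named with values where called. From related lists, the 2 called genes with the largest change in each direction among those averaging 50 counts are named. Other genes and figure panels were chosen after values were seen. The members and lists were chosen with earlier results of these data known. Alternatives were DESeq2's size factors, DESeq2 1.42.0 on the counts and on the ComBat-adjusted values, 2 other filters, no replicate block, a fit of just the 6 libraries under comparison, and leaving out each replicate or library. Leaving out libraries of conditions outside a comparison was added after the data were seen.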

Additional observations from a re-analysis of the deposited data

How the results depend on the processing

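The number of the 41 genes called was 31 in iLuc against iEF cells (27 to 32 with a library or replicate left out), 25 in WT-EF against iEF (17 to 25), 9 in DAF against iEF (2 to 10), 18 in WT-EF against iLuc (11 to 22) and 23 in WT-EF against DAF (19 to 25). These 5 counts stayed within 1.5 times under the other tests, filters, scalings and fits. Δ22 against iEF gave 1 gene (0 to 6 with a library or replicate left out), and 4 with DESeq2's Wald test, 4 with DESeq2 on the ComBat-adjusted values, 13 with no filter on low counts and 7 with only the 6 libraries compared. DAF against Δ22 gave 1 (0 to 3), and 4, 5, 11 and 16 under the same alternatives and 0 without the replicate block. The cause was not tested. Of 108 calls of a gene in a comparison, 66 held in every alternative, 42 were lost in at least 1 and 0 reversed in direction.

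The libraries are numbered alike across conditions. Deviations from condition means correlated with a median r of 0.0772 (-0.0529 to 0.403, 30 pairs) within a number and -0.0535 (60 pairs) between numbers. These values alone do not show that the numbers pair the libraries, and the block was kept in the model because the study's methods adjust each set of replicates. Without the replicate block, 30, 21, 1, 8, 15, 20 and 0 genes were called in iLuc, WT-EF, Δ22 and DAF against iEF, WT-EF against iLuc, WT-EF against DAF and DAF against Δ22. Precision is limited by depth for the 16 genes under 50 counts.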

Other observations

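Relatives of the enzymes, their substrates and AP-1 subunits were counted in the same edgeR fit, in iLuc against iEF cells, and those named are the largest changes among genes averaging at least 50 counts. Of 19 other metzincin enzymes and their regulators tested, 13 were lower and 2 were higher, with a median log2 fold change of -1.51. ADAM12 (-6.08 ± 0.37) and ADAM19 (-4.40 ± 0.39), both members of the ADAM family of membrane-bound proteases, were lower, whereas TLL1 (2.12 ± 0.31), a procollagen C-proteinase relative, and PAPPA (2.06 ± 0.21), a protease of IGF-binding proteins, were higher. Of 7 ADAMTS-like proteins, which lack the catalytic domain, 5 were lower, including THSD4 (-4.51 ± 0.31) and ADAMTSL3 (-2.54 ± 0.21). Of 12 proteoglycans and matrix proteins that these enzymes cut, 8 were lower and 1 was higher, and the thrombospondins THBS1 (-7.07 ± 0.43) and THBS2 (-6.12 ± 0.56) were lower. Of 7 AP-1 subunits, 4 were lower and 1, JUND (0.55 ± 0.19), was higher, and FOSL2 (-4.53 ± 0.28) and FOSL1 (-4.27 ± 0.24) were lower.

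In WT-EF against iEF cells, 11 of the 19 metzincins and their regulators and 5 of the 7 ADAMTS-like proteins were lower. So were 7 of the 12 matrix proteins and 6 of the 7 AP-1 subunits, and 1 metzincin, PAPPA, and 1 matrix protein, DCN, were higher. In DAF against iEF cells, 2 of the metzincins and their regulators were lower and 2, TLL1 (2.41 ± 0.31) and PAPPA (1.47 ± 0.21), were higher. Also lower were 2 ADAMTS-like proteins and 2 matrix proteins, and no AP-1 subunit was called. Over all genes tested, 22.1% were lower and 19.5% higher in iLuc, 17.0% and 12.9% in WT-EF and 6.19% and 5.00% in DAF cells. Whether the levels of these genes have a part in those of the MMP, ADAMTS and TIMP genes was not tested.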
